A study of Rattus norvegicus with 6 samples.

Results

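Collagens and laminins of the basement membrane were followed in kidney cortex from male rats of the Sprague-Dawley strain, on single-colour Agilent arrays with 1 array per animal. Of 6 rats, 3 received potassium bromate, an oxidising compound toxic to the kidney, at 100 mg/kg/day over 4 weeks, and 3 received water over the same time. All were of the Crl:CD(SD) stock, bought at 5 weeks of age and kept on the same basal diet, and cortex was taken as whole tissue, so levels are means over glomeruli, tubules, vessels and interstitium. The set was 9 genes chosen by name: Col4a1, Col4a2, Col4a3, Col4a4, Col18a1, Lama5, Lamb2, Lamc1 and Nid1. A probe belonged to the set when its transcript accession matched one of these symbols. That gave 15 of the 61537 probes on the array, for 6 of the 9 genes, out of 15645 symbols named in all. Col4a2, Col4a3 and Nid1 were not analysed here, because no probe carried an accession matched to them.

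The basement membrane is a thin sheet of matrix beneath epithelia and around capillaries. Type IV collagen chains assemble in threes into a network, laminins of 1 alpha, 1 beta and 1 gamma chain form another that binds cells, and nidogen and heparan sulfate proteoglycans join the sheets. In the kidney the alpha1 and alpha2 chains of collagen IV occur in nearly all basement membranes, whereas alpha3, alpha4 and alpha5 make the network of the mature glomerular filter and of parts of the distal tubule. Loss of these chains in people causes Alport syndrome. Lama5, Lamb2 and Lamc1 encode the chains of laminin-521, the main laminin of the mature glomerular basement membrane.

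Levels are given on the log2 scale as a probe's signal over its own array's 75th percentile, and differences as bromate minus water, with n = 3 per group throughout. All 15 probes were well above background on all 6 arrays. A probe was called when its p from limma, adjusted by Benjamini-Hochberg over 37781 probes tested, was under 0.05. Of the 15 probes, 3 rose, 2 fell and 10 did not pass. Over all probes 14.8% were called, 7.19% as higher and 7.6% as lower. The 5 calls of the set (33.3%) came from 3 genes, and probes of 1 gene are not independent. The groups did not overlap for 7 of the 15 probes (46.7%), against 41.1% of all probes. The median difference was 0.13 over the 15 probes and -0.02 over all probes. The calls were both probes of Col18a1, which rose, both probes of Col4a4, which fell, and the brightest probe of Col4a1, which rose. No probe of the laminin chains Lama5, Lamb2 or Lamc1 passed.

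Each array held 35621 to 38801 probes well above background (57.9% to 63.1%) and no saturated probe. The correlation between 2 arrays, taken over probes that are not independent of one another, was 0.987 to 0.991 among bromate arrays, 0.983 to 0.992 among water arrays and 0.966 to 0.977 between a bromate and a water array. Water replicate 1 had been hybridised on slide 1 alone, and slide 2 carried the remaining 5 arrays. Without water replicate 1, which is also what a slide term amounts to, 2064 probes rose and 2310 fell, against 2717 and 2873 with all arrays. With 3 arrays a group, precision is limited by their number. The series' design text calls the 3 samples of each group biological replicates.

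**Figure D1:**
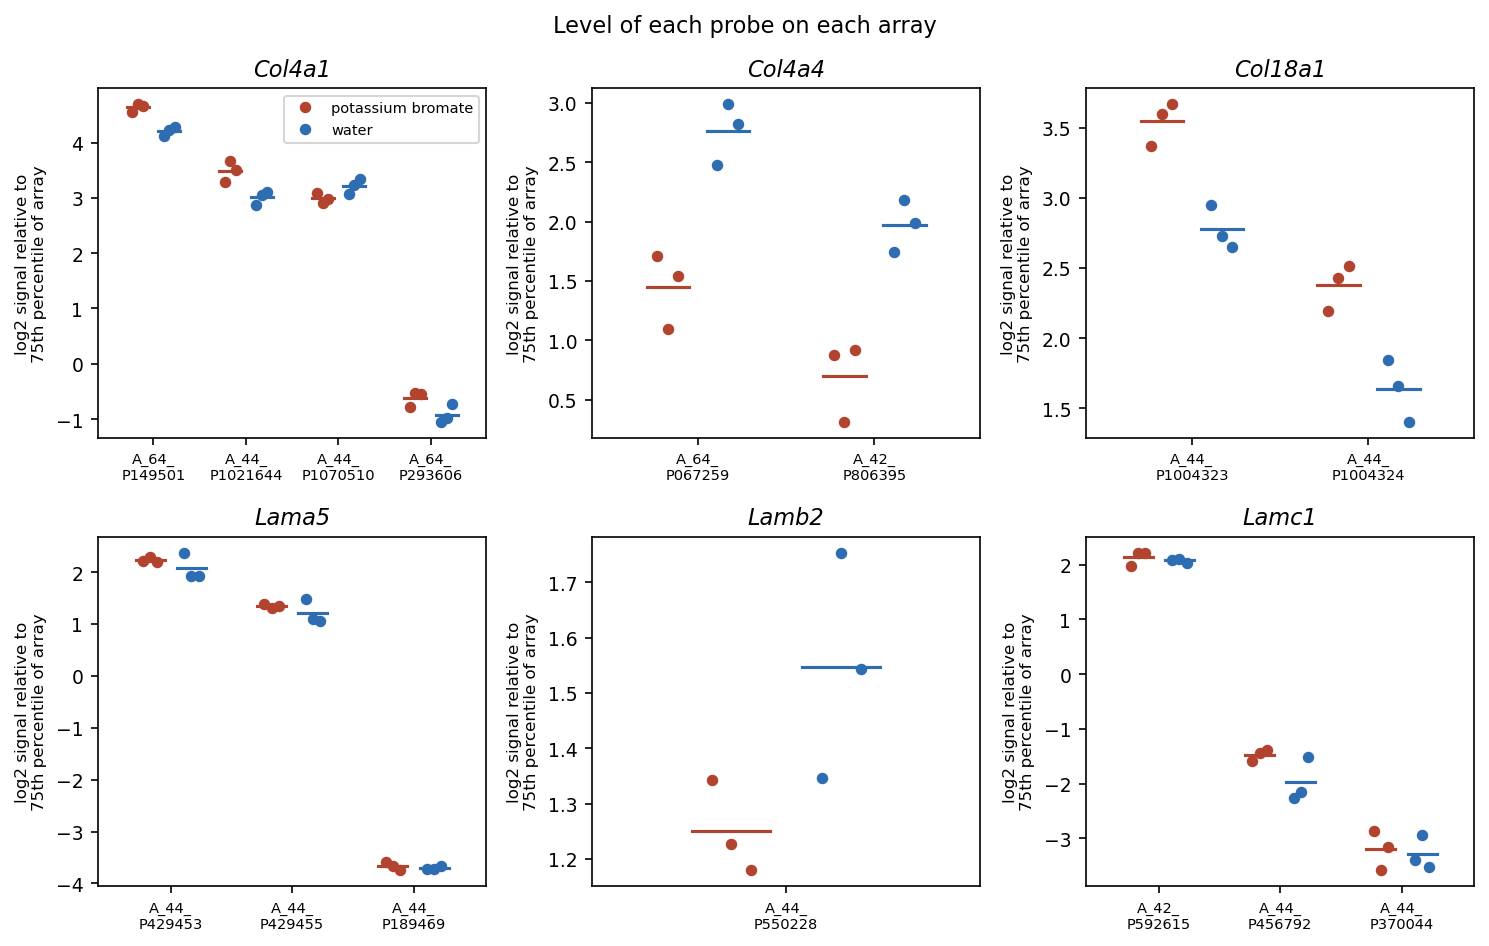
Level of each of the 15 probes on each array (vertical axis, log2 signal relative to the array's 75th percentile), in 1 panel per gene with a separate scale for each panel, potassium bromate (red) left of water (blue), points for arrays and lines for means. Col4a4 and Col18a1 show groups that do not overlap at either probe, and the laminin panels show small differences or overlap.

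Collagen IV genes lie head to head in pairs, each pair sharing the stretch between 2 starts, and the sequences before the genes with calls are shown because they are the regulatory stretches nearest to the transcripts that moved. In RefSeq on build GRCr8, 76 bases separate the starts of Col4a1 and Col4a2 on chromosome 16, and 412 bases separate those of Col4a3 and Col4a4 on chromosome 9. Capitals mark matches to a GC box (GGGCGG) on either strand.
Col4a1 and Col4a2, between the starts, chr16:84885521-84885596, plus strand: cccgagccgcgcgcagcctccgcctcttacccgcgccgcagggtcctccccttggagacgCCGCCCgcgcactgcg
Col4a4, 250 bases before its start, chr9:91323578-91323827, minus strand: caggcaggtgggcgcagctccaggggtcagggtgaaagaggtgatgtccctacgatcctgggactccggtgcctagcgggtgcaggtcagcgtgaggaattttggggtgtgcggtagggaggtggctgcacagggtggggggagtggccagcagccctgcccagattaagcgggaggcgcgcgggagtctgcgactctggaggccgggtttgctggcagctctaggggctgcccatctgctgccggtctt
Col18a1, 250 bases before its start, chr20:11473395-11473644, plus strand: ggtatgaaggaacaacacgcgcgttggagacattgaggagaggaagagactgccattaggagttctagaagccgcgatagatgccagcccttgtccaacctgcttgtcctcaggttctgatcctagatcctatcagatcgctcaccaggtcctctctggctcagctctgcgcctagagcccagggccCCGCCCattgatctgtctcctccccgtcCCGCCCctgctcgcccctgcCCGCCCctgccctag

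The window before Col18a1 held 3 matches to the GC box and the stretch between Col4a1 and Col4a2 held 1, whereas the window before Col4a4 held none. The windows before Lama5 and Lamc1, genes without a called probe, held 4 and 5, and the window before Col4a3 held 1. Col4a3 had no named probe, and whether matches go with the direction of change was not tested. Of 33469 windows of 250 bases before a start, 30.5% held the GC box. A CCAAT box was in none of the 3 printed stretches, but the windows of 250 bases before Col4a1 and before Col4a2, which reach past the other gene's start, held 1 each, and 34.0% of windows held one. The same windows held 1 GC box for Col4a1 and 2 for Col4a2. The AP-1 site TGANTCA and the core of the antioxidant response element, TGACNNNGC, were in none of these windows or stretches, against 6.3% and 10.1% of windows. Both strands were searched for these 4 motifs, of which TGANTCA and TGACNNNGC can match overlapping letters. A match describes letters and is not a site, and an absent match says only that these letters are not in the window. The stretch before Col4a4 had 66.4% G and C, the one before Col18a1 60.4% and the one between Col4a1 and Col4a2 78.9%.

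Col4a4, the alpha4 chain of the glomerular and distal tubular collagen network, fell about 2.5-fold at both of its probes. Probe A_64_P067259 read 1.71, 1.09 and 1.54 on bromate replicates 1 to 3, against 2.48, 2.99 and 2.82 on water replicates 1 to 3. Every bromate array lay below every water array, with the lowest value on bromate replicate 2. The means were 1.45 ± 0.32 in bromate rats and 2.76 ± 0.26 in water rats (SD), a log2 difference of -1.32 ± 0.21 (SE, 2.49-fold lower, limma adjusted p = 0.0153). Probe A_42_P806395 read 0.88, 0.31 and 0.92 in bromate rats, against 1.75, 2.18 and 1.98 in water rats. Its groups did not overlap either and its arrays ran in nearly the same order as at the other probe, with bromate replicate 2 lowest and water replicate 2 highest. Its log2 difference was -1.27 ± 0.20 (2.41-fold lower, limma adjusted p = 0.0158). Leaving out water replicate 2 gave differences of -1.20 and -1.16 with adjusted p of 0.0577 and 0.0597, and leaving out water replicate 3 gave -1.29 and -1.26 with adjusted p of 0.0543 and 0.0544. Both probes passed without any of the other 4 arrays.

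Markers of podocytes and of the distal tubule, cells known to make the alpha4 chain, are given beside this fall. In whole tissue, fewer cells of a type and less RNA per cell cannot be told apart. Over all genes at their brightest probe 8.76% rose and 8.54% fell. Of 14 podocyte markers 13 were tested, of which 1 rose, 1 fell and 11 did not pass, with a median difference of -0.22. Their summed signal was 64.4 to 66.9 times the 75th percentile in bromate rats and 64.0 to 76.9 in water rats, which overlap. The low water value was that of water replicate 1, which was also the lowest water array for Col4a4, and the other water arrays lay above all 3 bromate arrays. Wt1, a podocyte transcription factor gene, fell 1.65-fold (adjusted p = 0.046, and not called without bromate replicate 2 or 3 or water replicate 2 or 3), and Cd2ap, which encodes an adaptor of the slit diaphragm that other cells also make, rose 1.97-fold (adjusted p = 0.00413). Nphs1, which encodes nephrin of the slit diaphragm, was well above background on every array and differed by -0.39 ± 0.19, short of the threshold (adjusted p = 0.214). Of 10 markers of the loop's thick limb and the distal tubule, a list added after values were seen, 8 were tested and 7 fell. Their summed signal, most of it from Umod, was 62.3 to 109 in bromate rats and 313 to 542 in water rats. The count that fell was 3 without bromate replicate 2 or water replicate 2 and 4 without bromate replicate 3. Water replicate 1, lowest of the water arrays for Col4a4, was the highest for the distal sum, but the genes of that list split. Umod, Egf, Slc12a1, Cldn10 and Cldn16 were highest on that water array. Calb1 (1.88, against 2.84 and 3.24), Slc12a3 (3.94, against 4.47 and 4.87) and Kcnj1 (0.87, against 0.93 and 1.04) were lowest on it. The part of these cells in the fall of Col4a4 was not tested.

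**Figure D2:**
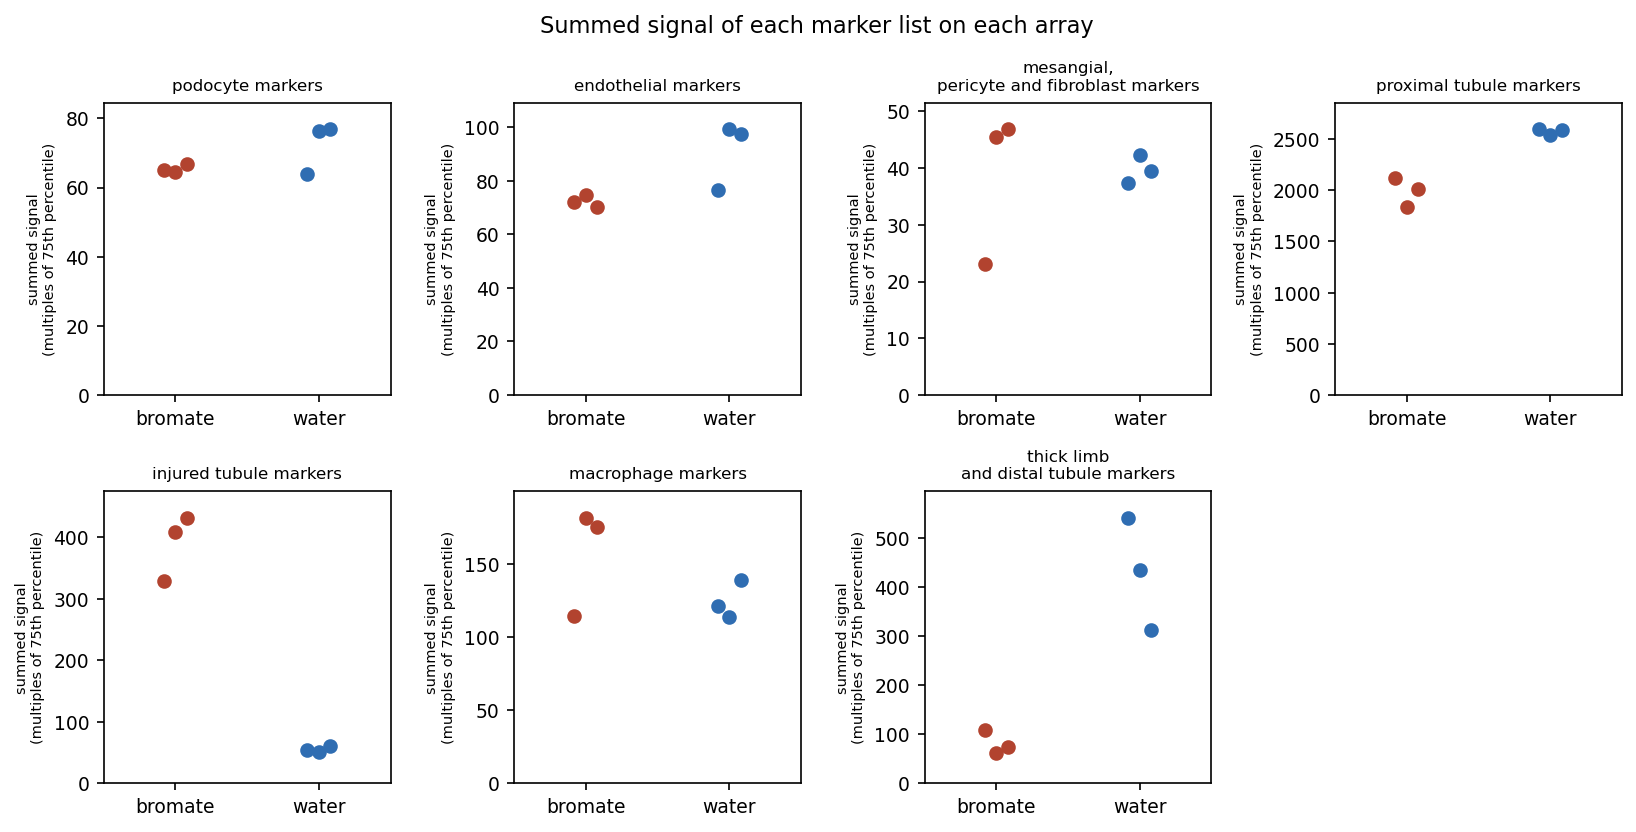
Summed signal of the brightest probe of each tested marker (vertical axis, multiples of the array's 75th percentile, from 0) for 7 marker lists, with a point for each array and potassium bromate left of water. The podocyte sums overlap between groups through 1 water array, whereas the thick limb and distal tubule sums lie at 62.3 to 109 in bromate rats and at 313 to 542 in water rats.

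Col4a1, the alpha1 chain of the collagen network found in nearly all basement membranes, rose at 1 of its 4 probes, and its probes did not agree. The brightest, A_64_P149501, read 4.56, 4.69 and 4.66 in bromate rats and 4.11, 4.22 and 4.29 in water rats. All 3 bromate values exceeded all 3 water values, by a small margin. The means were 4.64 ± 0.07 and 4.21 ± 0.09 (SD) for bromate and water rats, with a log2 difference of 0.43 ± 0.09 (1.35-fold, limma adjusted p = 0.0291). It passed without bromate replicate 1 and not without any of the other 5 arrays (differences of 0.38 to 0.47, adjusted p from 0.0556 to 0.0969), nor with slide as a block (0.38, adjusted p = 0.0556).

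The second probe, A_44_P1021644, read 3.28, 3.67 and 3.51 in bromate rats and 2.88, 3.05 and 3.11 in water rats. Its groups did not overlap, but at 0.48 ± 0.13 the adjusted p was 0.0588, above the threshold. Leaving out bromate replicate 1 raised the difference to 0.58, which passed (adjusted p = 0.0485). The dimmest, A_64_P293606, had overlapping groups and a difference of 0.31 ± 0.13 (adjusted p = 0.152). The remaining probe, A_44_P1070510, pointed the other way, with 3.08, 2.91 and 2.99 in bromate rats and 3.07, 3.24 and 3.35 in water rats. Bromate replicate 1 lay just above water replicate 1, so the groups overlapped, and the difference of -0.23 ± 0.10 did not pass (adjusted p = 0.191). Averaged over the 4 probes, the gene's difference was 0.25 ± 0.10, short of the threshold (adjusted p = 0.147). All 4 probes carry the same accession. Of 125 genes with at least 4 tested probes and at least 1 called probe, 20 (16%) had differences of both signs among their probes.

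Within arrays, the probe that pointed down read lower against the brightest Col4a1 probe in bromate rats (-1.48, -1.79 and -1.68) than in water rats (-1.04, -0.98 and -0.94). That change of -0.66 had the smallest p that an exact two-sided permutation test of 3 against 3 arrays can give, 0.1, which cannot reach 0.05. The same held for Col4a4 against Col4a1, chains of different collagen IV networks. Their brightest probes differed by -2.85, -3.60 and -3.13 on the bromate arrays and by -1.64, -1.23 and -1.47 on the water arrays, a change of -1.75 (exact p = 0.1). Both pairs, and a pair of Col18a1 with Col4a1, were chosen after values were seen. Over the 4 pairs compared, each adjusted p was 0.2.

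Col18a1, whose protein is a basement membrane collagen and proteoglycan core from which endostatin is cut, rose at both of its probes by about 1.7-fold. Probe A_44_P1004323 read 3.37, 3.60 and 3.67 in bromate rats and 2.95, 2.73 and 2.65 in water rats. The groups did not overlap, and bromate replicate 1 was the nearest to the water arrays. Its means were 3.55 ± 0.16 in bromate rats and 2.78 ± 0.16 in water rats (SD), with a log2 difference of 0.77 ± 0.12 (1.71-fold, limma adjusted p = 0.0164). Probe A_44_P1004324 read 2.19, 2.43 and 2.52 in bromate rats and 1.84, 1.66 and 1.40 in water rats, again without overlap. Its difference was 0.74 ± 0.15 (1.68-fold, limma adjusted p = 0.028). Both passed without bromate replicate 1 or water replicate 1. Neither passed without bromate replicate 2, bromate replicate 3, water replicate 2 or water replicate 3, with differences of 0.63 to 0.76 and adjusted p of 0.0535 to 0.0913. The change of Col18a1 exceeded that of Col4a1 by 0.34 within arrays (exact permutation p = 0.2, with 0.1 the smallest possible). Bromate replicate 1, at -1.18, lay just below water replicate 1, at -1.16, so the groups overlapped.

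**Figure D3:**
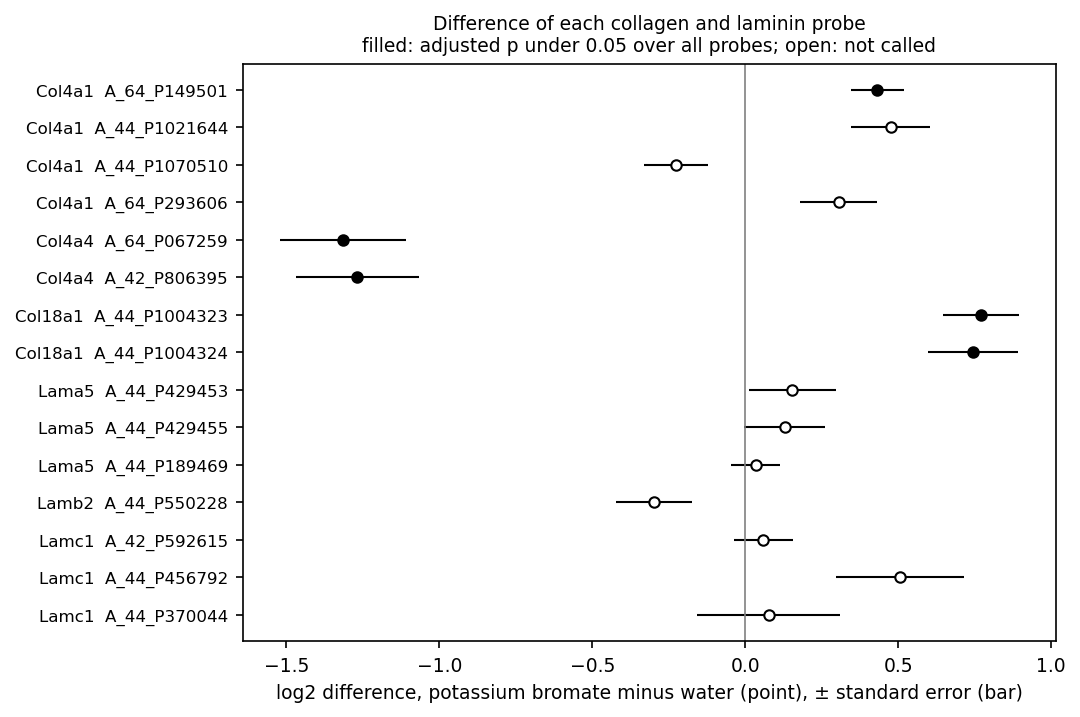
Log2 difference of bromate minus water (horizontal axis) for each of the 15 probes, with bars for the standard error, filled points for adjusted p under 0.05 over all probes and open points for the rest. Both Col4a4 probes lie at -1.32 and -1.27, both Col18a1 probes at 0.77 and 0.74, and the 4 Col4a1 probes on both sides of 0.

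Among the laminin chains 0 of 7 probes passed by limma. None of them had an unadjusted p under 0.05 either. Lama5, the alpha5 chain, had 3 probes with differences of 0.15 ± 0.14, 0.13 ± 0.13 and 0.03 ± 0.08 (adjusted p from 0.493 to 0.797). Its brightest probe, A_44_P429453, read 2.21, 2.28 and 2.19 in bromate rats and 2.37, 1.92 and 1.93 in water rats. Water replicate 1 was above all 3 bromate arrays and the other two water arrays below them, and without it the difference was 0.30 with adjusted p = 0.0736. The 95% interval of that probe's difference ran from -0.19 to 0.50, so a change in either direction within that range was not excluded.

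Lamb2, the beta2 chain whose loss in people causes Pierson syndrome with congenital nephrotic disease, had 1 probe. It read 1.34, 1.23 and 1.18 in bromate rats and 1.35, 1.75 and 1.54 in water rats. The groups did not overlap, though bromate replicate 1 and water replicate 1 all but touched, and the difference of -0.30 ± 0.12 did not pass (adjusted p = 0.159, 95% interval -0.60 to 0.01). Lamc1, the gamma1 chain shared by most laminins, had 3 probes. The brightest, A_42_P592615, read 1.98, 2.22 and 2.21 in bromate rats and 2.09, 2.11 and 2.03 in water rats, with overlap and a difference of 0.06 ± 0.10 (95% interval -0.18 to 0.29). Probe A_44_P456792, a dimmer one, was higher by 0.51 ± 0.21 on average, short of the threshold (adjusted p = 0.154). Water replicate 3 read -1.51 there, within the bromate range of -1.59 to -1.38, and without that array the difference was 0.74 and passed (adjusted p = 0.0347). The third Lamc1 probe had a difference of 0.08 ± 0.23. Lamb2 minus Lamc1, a pair of 2 chains of laminin-521, differed between the groups by -0.36 within arrays (exact permutation p = 0.2).

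Among other components of the basement membrane, calls went in both directions, and Lamb3 rose about 3-fold. Of 30 further components 18 had a named probe and 17 were tested, of which 3 rose, 2 fell and 12 did not pass. The median difference was -0.06, against -0.02 over 11572 genes taken at their brightest probe, of which 8.76% rose and 8.54% fell. Lamb3, the beta3 chain of a laminin that anchors epithelia to the matrix, read 0.55, 0.12 and 0.53 in bromate rats and -1.20, -1.37 and -1.36 in water rats. It rose 3.27-fold at 1 probe and 3.07-fold at the other (adjusted p = 0.00279 and 0.00334). All 3 bromate arrays lay above all 3 water arrays, and its brightest probe passed on leaving out any 1 array.

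**Figure D4:**
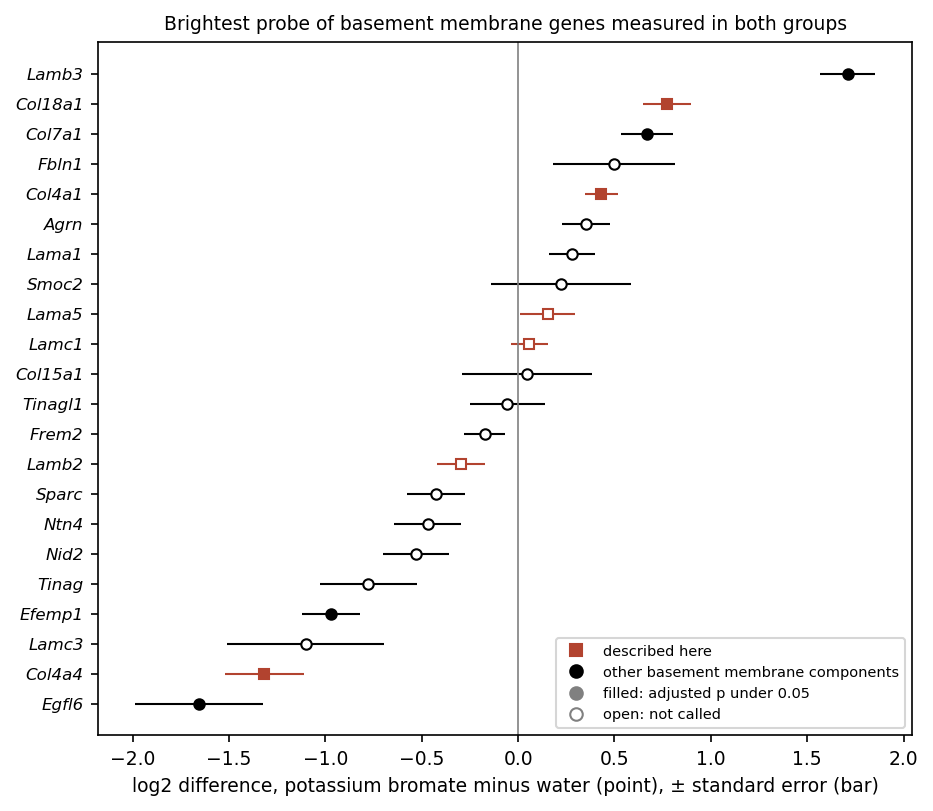
Log2 difference of bromate minus water (horizontal axis) with standard error bars for the brightest probe of each tested basement membrane gene that was well above background on at least 1 array of each group, squares for the genes described above and circles for other components, filled where adjusted p was under 0.05. Lamb3 at 1.71 lies to the right of Col18a1 and Col4a1, and Egfl6 at -1.65 and Col4a4 at -1.32 are at the left.

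Also higher was Col7a1, the anchoring fibril collagen of epithelia, which is named here after its value was seen (1.59-fold, adjusted p = 0.0294). The components that fell were Efemp1, which encodes fibulin-3 (1.96-fold, adjusted p = 0.015), and Egfl6, an extracellular matrix gene (3.15-fold, adjusted p = 0.0286). Efemp1 fell at its second probe as well (2.35-fold) and lost its call without water replicate 3 (adjusted p = 0.054). Egfl6 lost its call without water replicate 2 or any 1 of the bromate arrays. The count that rose was 2 to 4, and that of components that fell 1 to 2, on leaving out any 1 array. Agrn, the agrin proteoglycan of the glomerular basement membrane, chosen after its value was seen, did not pass (0.35 ± 0.12, adjusted p = 0.108).

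Of 26 enzymes and helpers that make and cross-link collagen and laminin 22 were tested, with a median difference of 0.11. Among them 1 rose, 1 fell and 20 did not pass, against 8.76% that rose and 8.54% that fell over all genes. Loxl4, a lysyl oxidase of the family that cross-links collagen, rose, with values of -2.64, -2.66 and -2.49 in bromate rats and -4.72, -4.69 and -5.46 in water rats (adjusted p = 0.00395). Of the water arrays, 1 of 3 read it well above background, so the measured ratio of 5.13 rests mostly on water values near background. It passed on leaving out any 1 array. Mia2, which helps load large cargo such as collagen into vesicles, fell 1.25-fold (adjusted p = 0.038) and did not pass on leaving out any 1 array. The count that rose was 3 without bromate replicate 1 and 2 without water replicate 1.

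Receptors that bind cells to the sheet held calls in both directions. Of 19 listed 15 were tested, of which 2 rose, 2 fell and 11 did not pass (median -0.13). By comparison, 8.76% of all genes at their brightest probe rose and 8.54% fell. Ddr1, a collagen receptor kinase, rose 1.56-fold (adjusted p = 0.0252) and Cd151, a tetraspanin that partners laminin-binding integrins, rose 1.29-fold (adjusted p = 0.037). Sdc2, a heparan sulfate proteoglycan, fell 1.76-fold (adjusted p = 0.00603) and Itga7, a laminin-binding integrin chain, fell 1.35-fold (adjusted p = 0.0475). Sdc2 passed on leaving out any 1 array, Cd151 and Itga7 passed on leaving out none, and Ddr1 passed without bromate replicate 1 or 3. No receptor rose by limma without bromate replicate 2 or any 1 of the water arrays, 1 rose without bromate replicate 3, and 1 fell on leaving out any 1 array.

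Proteases that cut the basement membrane and their inhibitors held more calls than the other lists of the sheet, with no test of that difference. Of 28 listed 26 were tested, of which 9 rose, 4 fell and 13 did not pass (median 0.16). The shares over all genes were 8.76% and 8.54%. Mmp7, which encodes matrilysin, rose at least 5.11-fold (adjusted p = 0.00807) and was not well above background on any water array. Adamts1, a secreted metalloprotease gene, rose 6.63-fold, with 5.31, 5.57 and 5.45 in bromate rats and 3.18, 2.97 and 1.99 in water rats (adjusted p = 0.00694). Mmp9, which encodes the collagen IV-cutting gelatinase B, fell at least 3.59-fold and was not well above background on any bromate array (adjusted p = 0.0114). These 3 genes passed on leaving out any 1 array, but Mmp7 and Mmp9 were tested only because 1 group was well above background, so their calls depend on that filter. The count that rose was 4 without bromate replicate 2 or water replicate 3, 5 without bromate replicate 3 or water replicate 2 and 6 without bromate replicate 1.

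The genes with patterns most like Col4a1 and Col4a4 were named by the correlation of their brightest probes over the 6 arrays, given as a description, since the 2 groups of 3 arrays set most of it. Closest to Col4a1 were Rlim (Pearson r = 0.999), Lepr (0.998), Efemp2 (0.996), Pla1a (0.995) and Iftap (0.995). Closest to Col4a4, which took the place of Col4a3, were Tceal1 (0.999), Gimap4 (0.997), Cmtm2a (0.997), Lhb (0.996) and Olfml1 (0.995). Efemp2 encodes fibulin-4, a matrix protein of elastic fibres, and had a difference of 0.94 ± 0.15 (limma adjusted p = 0.0151). Since Efemp2 was picked by likeness to a Col4a1 probe whose groups did not overlap, that difference is a description too.

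**Figure D5:**
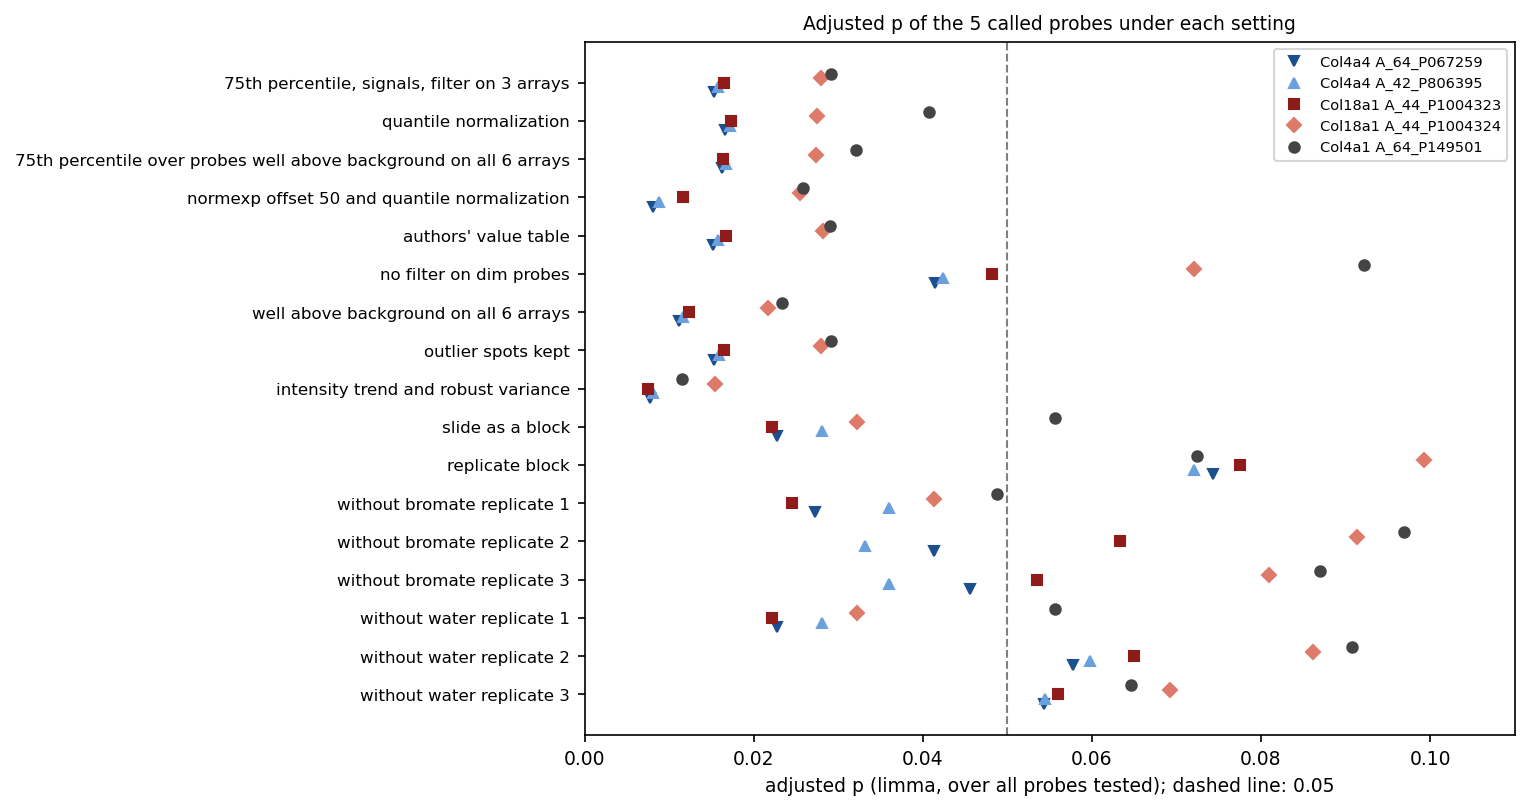
Adjusted p of the 5 called probes (horizontal axis, limma over all probes tested, dashed line at 0.05) under the setting used in the text, in the top row, and 16 others below it. The Col4a4 probes stay left of the line except with the replicate block and without water replicate 2 or 3, and the Col4a1 probe crosses it most often.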

How the data were processed

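Spots were quantified in Feature Extraction 10.7 from Agilent, as the submitters' processing notes give it. The file headers name rat build rn4 for the array design. The processed signal is a spot intensity that was background-subtracted and detrended by that software, per the file headers, and is not scaled between arrays. A table of values deposited by the authors gives a linear ratio per probe, which equalled the processed signal over the array's 75th percentile to within 0.415% for values above 0.05 (column medians 0.1025 to 0.1054). Its scaling is not stated. It was used as an alternative only.

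Here the processed signal was divided by the 75th percentile of each array's 61537 non-control probes and put on the log2 scale, with outlier spots left out. Probes well above background on at least 3 of 6 arrays were tested one by one with lmFit and eBayes of limma 3.58.1 (R 4.3.3), adjusted by Benjamini-Hochberg, with a threshold of 0.05. Of these, 2 probes that were outliers on a whole group had no test. The fit was tested on simulated data. For a fold given as "at least", a dim array's log2 level was raised, where it lay lower, to the weakest signal that counted as well above background there, before group means were compared. The model had no block for replicate number, and a fit with that block was an alternative.

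Probes were named by unversioned accession through RefSeq's GRCr8 gene table: 28206 (45.8%) had 1 symbol, 0 had several and 33331 had none and are unnamed here. Coordinates are of GRCr8 and not of the array's build. The members and gene lists were chosen with earlier results of these data known. The genes named were all members, up to 4 called genes with the largest change per list (the brightest where none was called), of which some are not reported here, and 5 genes most like Col4a1 and Col4a3. Of 5 planned pairs 1 could be computed, since Col4a2 and Col4a3 had no named probe, and 3 pairs were added. Lists were read at each gene's brightest probe. Alternatives are in the closing section.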

Additional observations from a re-analysis of the deposited data

How the results depend on the processing

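Each of the 15 probes was refitted under up to 17 other settings, giving 246 values, of which 214 kept direction and side of the threshold, 25 lost a call, 4 gained one and 3 turned direction. The 3 that turned were the dimmest Lama5 probe (-0.00253 without bromate replicate 1, up to 0.0753 without bromate replicate 3) and the dimmest Lamc1 probe (-0.0929 without bromate replicate 1 and -0.0429 without water replicate 3, up to 0.267 without bromate replicate 2), none of them called. Testing probes without a filter on dim signals gave 1091 probes that rose and 1023 that fell, and 1 member probe that rose. Labels give both groups replicate numbers 1 to 3 and do not tie them to a litter or day, and deviations of same-numbered arrays correlated at 0.056, 0.073 and -0.091. The replicate block gave 829 and 757 of all probes and 0 and 0 of the member probes, by limma (adjusted p of the 5 called probes 0.072 to 0.0992, with 6 member probes higher and 2 lower at an unadjusted p under 0.05). With the mean of each gene's probes 1 member gene rose and 1 fell. With 1 probe per gene Col18a1 and Col4a1 rose and 1 member gene fell. Both fits count genes rather than probes. Leaving out 1 array gave 871 to 2064 probes that rose and 785 to 2310 that fell, and 0 to 4 member probes that rose and 0 to 2 that fell. Both counts over all probes moved by over 1.5 times without bromate replicate 1, 2 or 3 or water replicate 2 or 3. Within-array differences kept their sign under all settings run. No array gave a saturated signal, and 3 against 3 arrays limit an exact permutation test to a p of 0.1.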

Other observations

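Markers of endothelium, which do not single out glomerular capillaries, were lower at 3 of 12 tested genes and higher at 1. The shares over all genes at their brightest probe were 8.54% lower and 8.76% higher. Emcn, which encodes endomucin, fell 1.55-fold (adjusted p = 0.0175), the tyrosine kinase gene Tie1 1.5-fold (adjusted p = 0.0123) and the tight junction gene Cldn5 1.59-fold (adjusted p = 0.0223), while the adhesion gene Esam rose 1.35-fold (adjusted p = 0.0358). The list's median difference was -0.25, and its summed signal was 70.3 to 74.8 in bromate rats and 76.7 to 99.3 in water rats, without overlap. The count that fell was 0 without bromate replicate 2, 1 without bromate replicate 3 or water replicate 2, and 2 without bromate replicate 1 or water replicate 3, and Esam passed on leaving out none.

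Of 14 tested markers of mesangial cells, pericytes and fibroblasts, Des, the intermediate filament gene desmin, rose 1.45-fold (adjusted p = 0.0468) and Gata3, a transcription factor gene of mesangial and collecting duct cells, fell 1.73-fold (adjusted p = 0.0155). Des passed on leaving out none of the arrays, 2 genes of the list rose without bromate replicate 1, and Gata3 passed except without bromate replicate 2 or water replicate 2. Their summed signal was 23.1 to 46.9 in bromate rats and 37.4 to 42.4 in water rats, with the lowest value on bromate replicate 1. Of 13 tested macrophage markers 2 rose, the lipopolysaccharide receptor gene Cd14 (2.35-fold, adjusted p = 0.0042) and the complement gene C1qb (1.91-fold, adjusted p = 0.0367). The count was 6 without bromate replicate 1 and 1 on leaving out any 1 of the other 5 arrays. All 14 proximal tubule markers were tested, of which 7 fell and the other 7 did not pass. Among those that fell was the endocytic receptor gene Lrp2 (1.86-fold, adjusted p = 0.00474). The count that fell was 3 without bromate replicate 2 or water replicate 3 and 4 without bromate replicate 3 or water replicate 2. Of 12 tested markers of injured tubules 6 rose and the other 6 did not pass. Their summed signal was 328 to 431 in bromate rats and 50.9 to 60.2 in water rats. In bromate rats most of that sum came from Spp1, with a mean log2 level of 7.73 there and 2.90 in water rats. For each list here, the shares over all genes at their brightest probe were 8.76% that rose and 8.54% that fell.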
